A study of Mus with 2 samples.

Results

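Haemoglobin-rich erythroblasts are the maturing red cell precursors of the bone marrow. They were selected on measured values, as cells in which haemoglobin genes (symbols starting Hba- or Hbb-) gave at least 5% of all transcripts counted and in which the macrophage genes C1qa, C1qb and C1qc together had fewer than 3. The rule kept 476 of 18089 cells, 274 of 8909 (3.08%, exact Clopper-Pearson 95% interval 2.73 to 3.46%) in the ground library and 202 of 9180 (2.20%, 1.91 to 2.52%) in the running library. Because haemoglobin chose these cells, their haemoglobin level and their number are given below as descriptions.

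The study profiled mouse bone marrow by droplet-based single-cell RNA sequencing in 2 groups, mice labelled ground and mice labelled running, with 1 library per group. Each transcript molecule was counted once at its 3′ end through a unique molecular identifier (UMI). The labels used here do not state how many mice entered a library, how long they ran, or what ground stands for beyond its contrast with running. With 1 library per group no difference between ground and running has a replicate check, so none was tested: intervals below cover counting error only, and the group, the animals and the library cannot be told apart.

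Red cell precursors start as dividing erythroid progenitors, switch on the globin genes, make haem in their mitochondria and take up iron through the transferrin receptor. As they mature they stop dividing, lose ribosomes, mitochondria and surface receptors, condense the nucleus and finally expel it, while globin messages come to dominate the remaining RNA. They mature around macrophages, which take up the expelled nuclei, and macrophage RNA can therefore enter the same droplet.

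Members had a median of 8338 UMIs and 1980 genes per cell in ground and 6278 UMIs and 1295 genes in running, with totals of 4015014 and 2781306 UMIs. Ground members ranged from 510 to 73000 UMIs and running members from 502 to 63370. Since large cells dominate a sum, 49 ground members and 34 running members held 50% of the UMIs outside haemoglobin. The libraries had 24 cell barcodes in common, and none of them was a member in both.

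The erythroid label was checked on genes that the rule did not use. Alas2, which encodes the erythroid enzyme of the first step of haem synthesis, was seen in 82.8% of ground and 73.8% of running members, against 0.730% and 0.610% of all other cells (median depth 5868 and 5089 UMIs). Slc4a1, the band 3 anion exchanger of the red cell membrane, was seen in 89.8% and 80.7% of members against 3.09% and 2.02% of other cells. Both markers were thus far more frequent in members than in other cells, in each library.

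Haemoglobin RNA was also counted in cells other than the members, in both libraries. Hba-a1 was seen in all members, and also in 43.4% of other cells in ground and 36.9% in running, so a single haemoglobin UMI did not mark an erythroid cell. Pooled over the other cells, haemoglobin took 0.0392% (ground) and 0.0505% (running) of the UMIs, far under the 5% that the rule asks. The other cells include those removed for C1q RNA, and the highest held 34.6% (ground) and 40.8% (running) haemoglobin. How much of the haemoglobin RNA in other cells was free RNA was not tested. Around the threshold, the cells at 4 to 5% haemoglobin numbered 28 in ground and 14 in running, and 64.3% and 71.4% of them had an Alas2 UMI. Those at 5 to 6% numbered 13 and 10, with Alas2 in 84.6% and 60.0%.

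The frequency of these marker genes followed depth. Of the members under 2000 UMIs, 39.2% in ground (20 of 51) and 35.9% in running (23 of 64) had an Alas2 UMI. At 20000 UMIs or more the shares were 98.9% (93 of 94) and 100% (72 of 72). Members under 2000 UMIs made up 18.6% of the ground and 31.7% of the running members, so the lower marker frequencies in running stood beside a larger proportion of shallow cells, whose part in them was not tested.

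A second group of cells, chosen by erythroid genes, served for comparison. These early erythroid cells had under 5% haemoglobin and at least 4 UMIs over at least 3 of 7 genes of the erythroid progenitor stage (Car1, Klf1, Gata1, Epor, Aqp1, Ermap, Car2). Their median depth was 28300 UMIs in ground and 34760 in running. They also held RNA of megakaryocyte and granulocyte progenitor markers, at levels given below. Whether all of them were erythroid was not tested. They numbered 279 in ground (3.13%) and 283 in running (3.08%), a ratio of 0.984 (95% interval 0.836 to 1.16). The members were fewer in running, with a ratio of shares of 0.716 (0.598 to 0.856). Members made up 49.5% of members and early cells together in ground and 41.6% in running. Whether this gap exceeds the spread between libraries of one group was not tested.

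Haemoglobin content varied widely among the members. Its median was 16.2% of a cell's UMIs in ground (quartiles 10.3 and 30.3%) and 15.1% in running (9.17 and 31.2%), and the highest cells reached 87.2% and 90.7%. A set of 3 haemoglobin classes was drawn to follow this range, which stands in for maturation: 5 to 20%, 20 to 50%, and 50% or more. They held 164, 84 and 26 ground members (59.9, 30.7 and 9.49%) and 117, 64 and 21 running members (57.9, 31.7 and 10.4%). The make-up of the members by class was thus close in both libraries, and the lower number in running was spread over the classes.

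**Figure D1:**
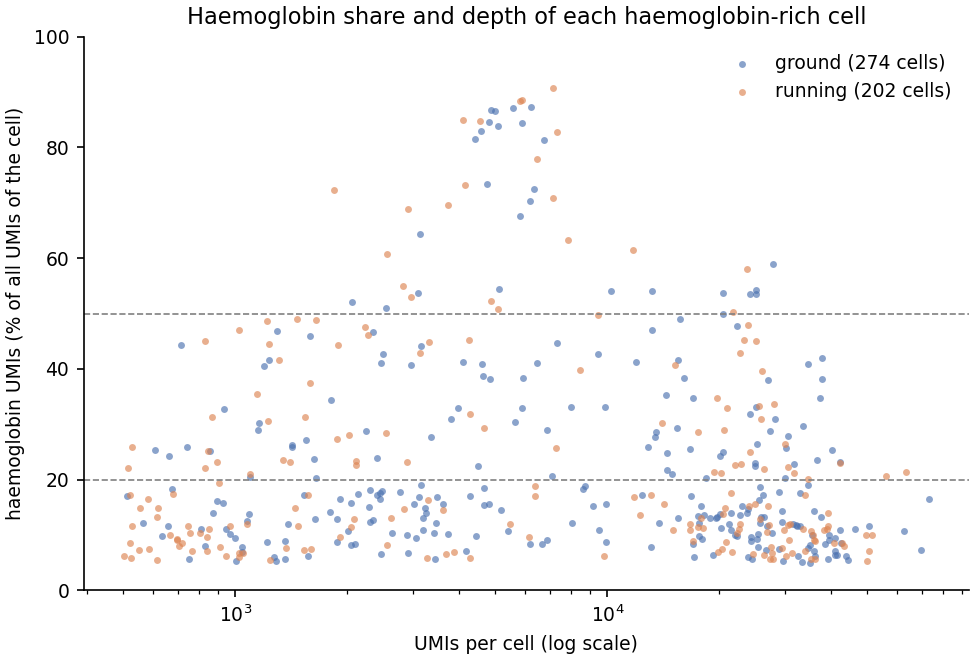
Haemoglobin share of UMIs (vertical axis, %) against UMIs per cell (horizontal axis, log scale) for each of the 274 ground and 202 running members. Dashed lines mark 20% and 50%. Cells above 50% had medians of 5698 UMIs in ground and 5083 in running, and the deepest cell of each library, at 73000 and 63370 UMIs, held under 50% haemoglobin.

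Cells with more haemoglobin held fewer kinds of transcript. The median number of genes was 2560 in ground and 2674 in running at 5 to 20% haemoglobin, and 552 and 429 at 50% or more. Part of this follows from depth, so each cell was also thinned to 500 UMIs outside haemoglobin, leaving out 4 ground and 10 running members that were shallower. At this equal depth the medians were 343 and 340 genes at 5 to 20%, 344 and 335 at 20 to 50%, and 273.5 and 242 at 50% or more. The narrowing at the top of the range was therefore present at equal depth, and in both libraries.

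The adult globin genes supplied nearly all haemoglobin UMIs. The alpha genes Hba-a1 (chromosome 11, 32283672 to 32284486 in GRCm38.p6) and Hba-a2 (chromosome 11, 32296492 to 32297310) gave 233156 and 89960 UMIs in ground and 147483 and 60866 in running. The beta genes Hbb-bs (chromosome 7, 103826523 to 103827928) and Hbb-bt (chromosome 7, 103812524 to 103813923) gave 330896 and 129380 UMIs in ground and 225240 and 84952 in running. Each pair is nearly identical in sequence, so the division of reads between its copies is uncertain.

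Hbb-bs was the most counted globin in both libraries, at 42.2% of haemoglobin UMIs in ground and 43.4% in running. Hba-a1 followed at 29.8% and 28.4%. The ratio of alpha to beta UMIs was 0.702 in ground and 0.672 in running, and the median alpha share of a cell's haemoglobin UMIs was 42.2% and 41.5%. Embryonic globins were almost absent: Hba-x had 7 and 1 UMIs, Hbb-y had 2 and 3, Hbb-bh1 had 0 and 1, and Hbb-bh2 had none in either library. A count of 0 allows up to 3 UMIs in a library's members. Hbq1b, a theta globin, had 158 and 131 UMIs.

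The use of the globin copies differed along the range of haemoglobin content, in the same order in both libraries. Among the UMIs given to the alpha pair, Hba-a1 held 82.2% in ground and 80.4% in running early erythroid cells. It held 77.7% and 77.9% of them at 5 to 20% haemoglobin, 72.8% and 71.1% at 20 to 50%, and 60.1% and 57.0% at 50% or more. Hba-a2 thus took a growing part as haemoglobin increased. For the beta pair the order ran the other way: Hbb-bs held 59.1% and 64.1% in early cells, then 67.7% and 67.8%, 73.2% and 74.3%, and 76.9% and 77.7% in the 3 classes of members. The classes come from haemoglobin itself, so this order is a description. In other cells Hba-a1 held 57.6% and 59.0% of the alpha pair. Any free haemoglobin RNA was neither estimated nor removed.

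**Figure D2:**
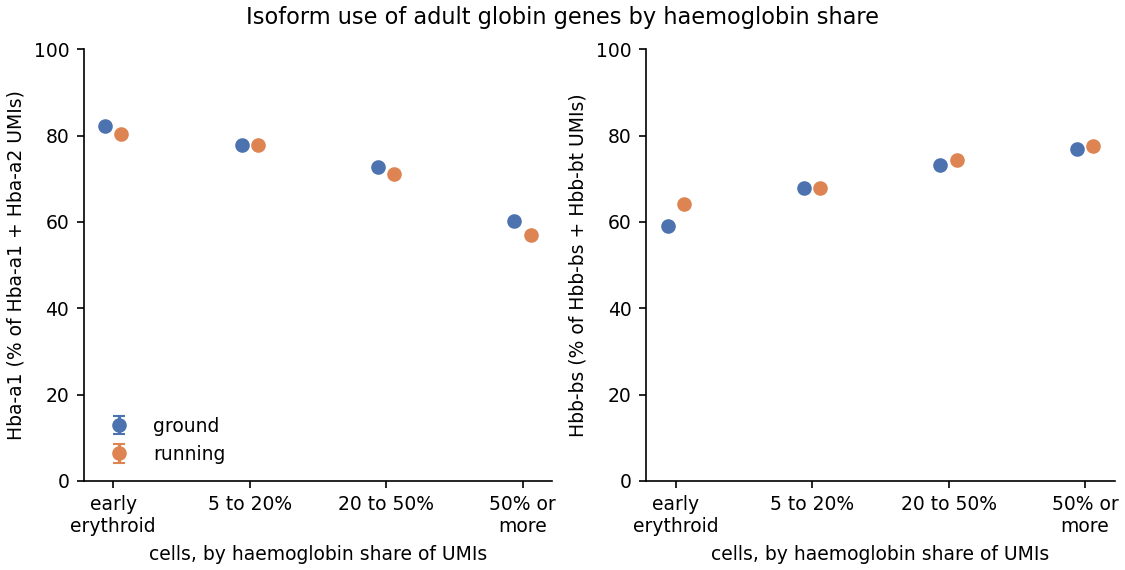
Share of Hba-a1 among alpha UMIs (left) and of Hbb-bs among beta UMIs (right), in %, in early erythroid cells and the 3 haemoglobin classes of members, for ground and running. Bars are exact 95% counting intervals and are smaller than the points. Hba-a1 was lower and Hbb-bs higher in each further class, from 82.2% to 60.1% and from 59.1% to 76.9% in ground.

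The levels of all other genes are given as counts per 1000000 UMIs outside haemoglobin (CPM), summed over the cells of a library, because haemoglobin takes a large and variable part of each cell. A list's summed level takes in all its genes, also those with few UMIs. The machinery of haem synthesis (19 genes) had 4496 CPM in the early erythroid cells of ground and 3748 CPM in those of running. Its summed level was 10070 and 9814 CPM at 5 to 20% haemoglobin, 14930 and 14530 at 20 to 50%, and 21580 and 18480 at 50% or more, against 652 and 611 CPM in other cells. Genes of the red cell membrane and its skeleton stood at 9022 and 8465 CPM, 16990 and 15880 CPM, and 37440 and 30710 CPM in the same classes. Both groups were thus higher in each class with more haemoglobin, in each library.

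Genes for clearing organelles and expelling the nucleus were concentrated at the top of the range. Their summed level at 5 to 20% haemoglobin was 5127 CPM (ground) and 4821 CPM (running), then 7409 and 7807 at 20 to 50%, and 23050 and 25770 at 50% or more. Ribosomal protein genes ran the other way, from 258100 and 279100 CPM to 176300 and 201400 and then to 47350 and 46110 CPM. Heat shock chaperones stood at 12320 and 12170 CPM in early cells and at 1158 and 1693 CPM in the class with the most haemoglobin. The RNA of the mitochondrial genome was at 32540 and 32700 CPM at 5 to 20% and at 20830 and 20690 CPM at 50% or more.

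Cell cycle genes did not follow a single order. Genes of mitosis were at 14510 and 13890 CPM at 5 to 20% haemoglobin and at 20470 and 21070 CPM at 20 to 50%, above early cells at 7701 and 6960 CPM. At 50% or more they stood apart, with 28270 CPM (ground) and 13480 CPM (running). S phase genes were at 11800 and 9878 CPM at 20 to 50% and at 3315 and 7331 CPM at 50% or more. In this last class 4 ground cells and 3 running cells held 50% of the UMIs outside haemoglobin, so its cell cycle values rest on a few cells. Mki67, a marker of dividing cells, was seen in 46.2% of ground and 47.6% of running members in that class, and in 90.9% and 85.5% at 5 to 20%.

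**Figure D3:**
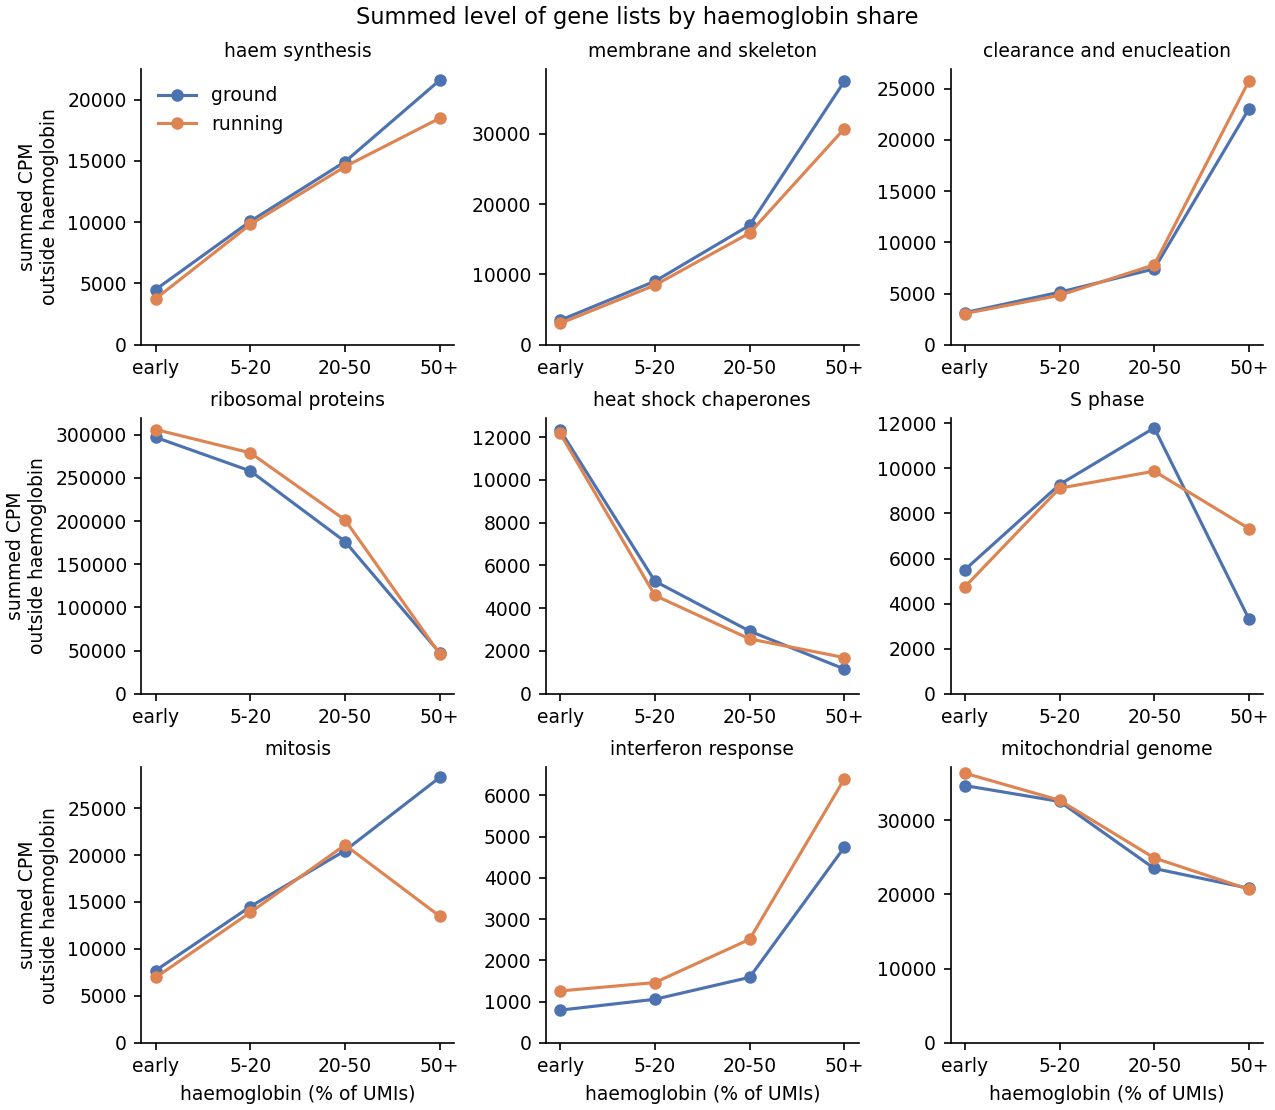
Summed level of 9 gene lists (vertical axis, CPM outside haemoglobin) in early erythroid cells and the 3 haemoglobin classes of members, 1 line per library, with no replicate error. Haem synthesis, membrane and clearance genes were higher and ribosomal protein and heat shock genes lower with each class in both libraries, while mitosis genes parted at 50% or more (28270 in ground, 13480 in running).

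Single genes marked the ends of this range. With the most haemoglobin, Xpo7, a nuclear export receptor that acts in nuclear condensation of erythroblasts, had 2373 CPM (ground) and 3449 CPM (running), against 5.02 and 9.79 CPM at 5 to 20%. It was seen in 65.4% and 61.9% of cells of the first class and in 6.71% and 5.13% of the second. Slfn14, a ribosome-associated endoribonuclease, went from 4.60 and 4.89 CPM to 840.1 and 1404 CPM. Bpgm, which makes the 2,3-bisphosphoglycerate that lowers the oxygen affinity of haemoglobin, went from 37.7 and 31.8 CPM to 1726 and 2726 CPM. Genes were named for this range only where both libraries had the same direction, so that agreement was set by the choice.

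Further genes reached the top of the range by the same measure. Tent5c, a poly(A) polymerase, went from 74.5 and 51.4 CPM to 2895 and 3263 CPM and was seen in 96.2% and 95.2% of the cells with the most haemoglobin. Bcl2l1, which encodes the survival factor Bcl-xL, went from 15.1 and 12.2 CPM to 488.2 and 1012 CPM. Tmcc2, Sowaha, Tbcel and Ube2h, the last a ubiquitin-conjugating enzyme, had log2 ratios over both libraries of 6.31, 6.68, 5.61 and 5.01. Rsad2, which encodes the antiviral protein viperin and is known as an interferon-induced gene, was also among the 10: it went from 51.9 and 89.9 CPM to 2100 and 3366 CPM. It was seen in 28.7% and 36.8% of cells at 5 to 20% haemoglobin and in 84.6% and 95.2% at 50% or more.

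At the other end, Car1, the carbonic anhydrase of erythroid progenitors, had 1271 CPM (ground) and 1462 CPM (running) at 5 to 20% haemoglobin, from 3038 and 2391 UMIs. At 50% or more it was at 45.4 and 61.9 CPM, from 4 and 3 UMIs. The chaperone Hsp90ab1 went from 1226 and 1281 CPM to 102.2 and 103.3 CPM. The other 8 were C1qtnf12, Atp5g1 (a subunit of ATP synthase), Nme1 (a nucleoside diphosphate kinase), Snrpf (a core splicing factor), Eef1g (a translation elongation factor), Ndufb2 (a subunit of respiratory complex I), Scand1 and Acp5. Their log2 ratios lay between -4.17 for C1qtnf12 and -3.55 for Acp5. These 8 genes include parts of translation, splicing and mitochondrial respiration, and each had 5 UMIs or fewer in each library at 50% or more.

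Between the libraries, most genes of the members stood close together. Among 6559 genes with at least 50 UMIs over both libraries, 15 were 2-fold or more higher in running (0.229% of them) and 86 were 2-fold or more lower (1.31%). The median log2 ratio of running over ground outside haemoglobin was -0.05, and 41.2% of the genes were above 0. These shares are the background against which the gene groups below are read.

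Haem synthesis differed little. None of its 18 genes with at least 50 UMIs passed 2-fold, 6 were above and 12 below 0, and their median was -0.05. Alas2 (chromosome X, 150547417 to 150570622 in GRCm38.p6) had 2254 UMIs in ground and 1431 in running, or 697.5 and 632.4 CPM. Its log2 ratio was -0.14 (-0.24 to -0.05), which turned to 0.06 as a mean over cells and to 0.05 at a haemoglobin minimum of 25%. Among the downstream enzymes, log2 ratios were -0.02 for Alad, -0.05 for Uros, 0.04 for Urod, -0.21 for Cpox, -0.08 for Ppox and -0.15 for Fech. Among the mitochondrial carriers and membrane proteins of the route, values stood at -0.12 for Slc25a38, -0.10 for Slc25a39, 0.10 for Tmem14c, -0.03 for Abcb10 and -0.05 for Abcb6. Glrx5, of iron-sulphur cluster assembly, stood at 0.04, Fam210b at 0.04, Snx3, which helps recycle the transferrin receptor, at 0.11, and Clpx, a mitochondrial protease subunit, at 0.05. Alas1, the housekeeping form of the first enzyme, had only 32 and 10 UMIs and did not pass the minimum of 50.

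In early erythroid cells the same list was lower in running, with a median of -0.28 and 2 genes above 0. Alas2 stood there at -0.94, against -0.14 in the members. Early cells held 0.897% haemoglobin in ground and 0.601% in running. Their levels of megakaryocyte and granulocyte progenitor markers also differed between the libraries, as given below. The part of such make-up in the ratios of early cells was not tested.

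Iron handling had a median of -0.07 over 15 genes, none of them past 2-fold. Tfrc, the transferrin receptor through which erythroblasts take up iron, had 5473 and 2833 UMIs, or 1694 CPM (ground) and 1252 CPM (running), for a log2 ratio of -0.44 (-0.50 to -0.37). Its ratio was -0.40, -0.47 and -0.96 in the 3 haemoglobin classes and -0.34 in early cells, against 0.13 in other cells. Slc25a37, the mitochondrial iron importer mitoferrin 1, stood at 1371 and 1083 CPM, a log2 ratio of -0.34 that turned to 0.01 at a haemoglobin minimum of 25%. Exoc6, which takes part in transferrin cycling, and Ireb2, an iron-sensing RNA-binding protein, stood at -0.34 and -0.33, with intervals that include 0.

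Erythroid transcription factors and cofactors had a median of -0.15 over 21 genes, with 17 below 0, where 58.8% of all genes were. The only one past 2-fold was Cbfa2t3, a corepressor, at 57 and 17 UMIs and a log2 ratio of -1.23 (-2.11 to -0.43), which turned to 0.34 as a mean over cells. Lyl1 stood at -0.47, Klf3 at -0.29 and Ldb1 at -0.26. Gata1, the central erythroid factor, stood at 188.5 and 164.4 CPM, a log2 ratio of -0.20 (-0.39 to -0.01).

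Membrane and skeleton genes were similar, at a median of -0.11 over 25 genes with 19 below 0. Slc4a1 stood at 2022 and 1776 CPM, a log2 ratio of -0.19. The beta spectrin gene Sptb stood at -0.29, Dmtn (dematin) at -0.24 and the mechanosensitive channel gene Piezo1 at -0.24, while Tmcc2 stood at 0.29. Enzymes and chaperones of the red cell had a median of -0.03 over 17 genes. Among them Bpgm stood at 0.31 (0.05 to 0.56) and Car1 at 0.24 (0.17 to 0.31), the latter turning to -0.07 both as a mean over cells and at a haemoglobin minimum of 25%. Pklr, the red cell pyruvate kinase, and Gsr, glutathione reductase, stood at -0.29 and -0.27 with intervals that include 0. Clearance and enucleation genes had a median of -0.03 over 27 genes, from 0.55 for Xpo7 (0.32 to 0.79) and 0.51 for the autophagy kinase gene Ulk1 to -0.53 for Atg7, where Ulk1 and Atg7 have intervals that include 0.

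Erythropoietin acts through its receptor Epor to keep erythroblasts alive. Epor had 130.9 CPM (ground) and 106.1 CPM (running), a log2 ratio of -0.30 (-0.54 to -0.07). Response genes had a median of -0.02 over 10 genes, with none past 2-fold, and this median ran from -0.32 to 0.09 over the alternatives. Their summed level was lower in running, at 687.3 and 531.7 CPM, a log2 ratio of -0.37 (-0.47 to -0.27). The medians were -0.27 at 5 to 20% haemoglobin and -0.42 at 20 to 50%. Pim1, a survival kinase gene, had 502 and 198 UMIs, or 155.3 and 87.5 CPM, and a log2 ratio of -0.83 (-1.07 to -0.59). Pim1 was seen in 175 of 274 ground and 82 of 202 running members, and its ratio was -0.79 in early cells and -0.71 in other cells. Mcl1, a survival factor, stood at -0.45 and Bcl2l1 at 0.47. Spi1, a factor of the myeloid lineages, stood at -0.97, with 126 and 45 UMIs.

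Surface genes that mark erythroid stages had a median of -0.14 over 12 genes. Cd36, a fatty acid receptor, was higher in running at 49.2 and 79.1 CPM, a log2 ratio of 0.69 (0.37 to 1.002). Its level was 3.86 and 4.10 CPM in early erythroid cells and 681.2 and 1280 CPM at 50% haemoglobin or more. The ratio was 0.09 in early cells, with an interval that includes 0, and 1.28 in other cells. Slc3a2, the heavy chain of amino acid transporters, was lower at 150.1 and 90.6 CPM, a log2 ratio of -0.73 (-0.97 to -0.49). Cd63, a tetraspanin, stood at -1.28 from 66 and 19 UMIs, but 1 ground cell held 28 of them, and at 20 to 50% haemoglobin its ratio was 1.70 from 4 and 10 UMIs. Cell cycle lists lay near the background: S phase genes had a median of -0.05 over 25 genes, mitosis genes -0.11 over 25 genes and genes of cell cycle exit -0.11 over 8 genes, none past 2-fold.

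Interferon response genes had the highest median of the gene lists described here. Of 30 genes, 25 were above 0, 6 passed 2-fold upwards and 1 downwards, with a median log2 ratio of 0.53 against -0.05 over all genes. The median was 0.38 at 5 to 20% haemoglobin and 0.52 at 20 to 50%. It was 0.74 in early erythroid cells (33 of 36 above 0) and 0.71 in all other cells (42 of 43 above 0). Over all genes 47.4% of those in early cells and 69.0% of those in other cells were above 0. Higher levels in running were thus seen in all 3 groups of cells.

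Isg15, a ubiquitin-like interferon-induced protein (chromosome 4, 156199424 to 156200818 in GRCm38.p6), had 423 UMIs in ground and 605 in running, or 130.9 and 267.4 CPM. Its log2 ratio was 1.03 (0.85 to 1.21) in members, 2.47 in early cells and 1.31 in other cells, and in members it was under 2-fold at the higher haemoglobin minimums, as a mean over cells and with classes in equal proportions (lowest 0.69). Rtp4 had 13 and 58 UMIs, Oas1a 18 and 42 and Oasl1 21 and 44, with log2 ratios of 2.67, 1.74 and 1.58. Igtp, an interferon-induced GTPase, had 29 and 48 UMIs and a ratio of 1.24. Oasl1 was under 2-fold as a mean over cells (0.73) and Igtp at a haemoglobin minimum of 10% (0.91). Rsad2 stood at 144.5 and 235.6 CPM, a log2 ratio of 0.70, and at 0.79, 0.88 and 0.68 in the 3 haemoglobin classes. It was thus higher in running within each class. Its higher level with the most haemoglobin in each library was part of the rule that named it.

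The remaining pair of interferon genes past 2-fold was looked up after their values were seen. Ifi27l2a had 98 and 161 UMIs and a log2 ratio of 1.23, but 1 running cell held 55 of its UMIs. Bst2, which encodes the surface protein tetherin, was the gene past 2-fold downwards: it had 58 and 19 UMIs and a log2 ratio of -1.10, against 0.82 in early erythroid cells and 0.57 in other cells.

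Antigen presentation by MHC class I had a median of 0.15 over 19 genes, with 13 above 0 and 2 past 2-fold upwards, and this median turned to -0.15 as a mean over cells. B2m, the shared light chain, had 1502 and 1959 UMIs, or 464.8 and 865.8 CPM, with a log2 ratio of 0.90 (0.80 to 0.995). B2m was seen in 201 of 274 and 149 of 202 members, and stood at 0.91, 0.85 and 1.12 in the 3 haemoglobin classes, 0.73 in early cells and 0.58 in other cells. H2-K1, a heavy chain, stood at 88.2 and 154.7 CPM, a ratio of 0.81. Psmb9, a subunit of the immunoproteasome (chromosome 17, 34182030 to 34187330 in GRCm38.p6), had 34 and 76 UMIs and a ratio of 1.68 (1.07 to 2.30). Its neighbour Tap1, the peptide transporter (chromosome 17, 34187556 to 34197225), had 54 and 69 UMIs and a ratio of 0.87. H2-Q7 had 15 and 61 UMIs and a ratio of 2.54, but it has near-identical neighbours, so its count is uncertain.

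The 10 highest genes with at least 100 UMIs held further members of these groups. They were Psmb9, Apol11b, Sh2d4a, Isg15, B2m, Parp9, Tap1, Ifi35, H2-K1 and Ascc1, with log2 ratios from 1.68 down to 0.80. Of these Ifi35 turned from 0.85 to -0.48 as a mean over cells. Apol11b, of the apolipoprotein L family (chromosome 15, 77633951 to 77643286 in GRCm38.p6), had 224 and 493 UMIs, or 69.3 and 217.9 CPM, a ratio of 1.65 (1.42 to 1.89). It was seen in 15.2% of ground and 39.3% of running cells at 5 to 20% haemoglobin and in 50% and 81.0% at 50% or more, with ratios of 1.19, 1.77 and 2.37 in the 3 classes. In early cells its ratio was 1.21 and in other cells 0.45. Sh2d4a, an SH2 domain adaptor, had 52 and 88 UMIs and a ratio of 1.27, and Ascc1 stood at 0.80 with about 0 in early cells and 0.05 in other cells.

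**Figure D4:**
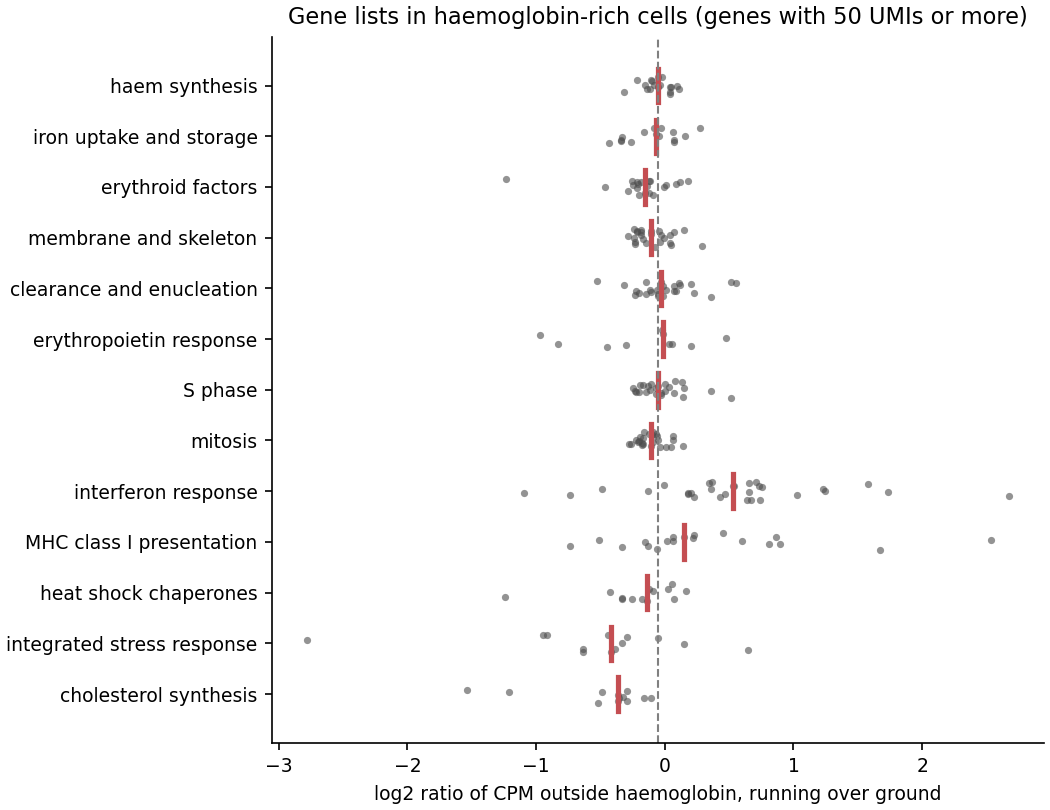
Log2 ratio of running over ground (CPM outside haemoglobin) of each gene with at least 50 UMIs in 13 lists; red bars are list medians and the dashed line is the median of all genes (-0.05). Interferon response genes sat highest with a median of 0.53, integrated stress and cholesterol genes lowest at -0.42 and -0.36, and haem synthesis genes lay on the line at -0.05.

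Integrated stress and cholesterol genes had the lowest medians of the lists other than markers of other cell types. The integrated stress response, through which cells meet a shortage of amino acids or of haem, had a median of -0.42 over 13 genes, with 11 below 0. The median was -0.31 and -0.50 in the lower haemoglobin classes, -0.10 in early cells and 0.02 in other cells. Psat1, an enzyme of serine synthesis (chromosome 19, 15905123 to 15925059 in GRCm38.p6), had 49 and 5 UMIs, a log2 ratio of -2.78 (-4.46 to -1.46). It was seen in 30 of 274 and 5 of 202 members. Mthfd2, of mitochondrial folate metabolism, had 459 and 170 UMIs, or 142.0 and 75.1 CPM, a ratio of -0.92 (-1.18 to -0.66), against -0.17 in early cells. Sesn2 stood at -0.95, while Slc7a11, the cystine transporter gene, stood at 0.64.

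Cholesterol synthesis genes were all below 0 in the members, 12 of 12 with a median of -0.36, against 0.10 in early cells and -0.03 in other cells. Msmo1 had 54 and 13 UMIs and Sc5d 43 and 13, with log2 ratios of -1.54 (-2.54 to -0.65) and -1.21 (-2.23 to -0.29). As a mean over cells Msmo1 was under 2-fold, at -0.73. Fdps stood at -0.49, and Sqle, an early enzyme of the sterol branch, at -0.52 with an interval that includes 0. Counts of these genes were low, at 321.4 and 229.3 CPM for the list at 5 to 20% haemoglobin.

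Among heat shock chaperones (median -0.14 over 13 genes), Hsph1 had 233 and 69 UMIs and a ratio of -1.24 (-1.65 to -0.85), and Hspa8 had 4099 and 2140 UMIs and a ratio of -0.42 (-0.50 to -0.35). Their ratios were -0.41 and -0.09 in early cells. Glycolysis genes had a median of -0.21 over 15 genes. Pkm and Pgam1, 2 enzymes of that pathway, stood at -0.94 and -0.96, and Eno1 and Aldoa at -0.48 and -0.46. Without the members rich in neutrophil RNA, described below, the list's median was 0.00057, Aldoa stood at 0.21 and Pkm at -0.20. The lower level in running was thus not seen there in the median or in Aldoa, while Pkm stayed below 0. Eno1 ran from -0.56 to -0.31 over the alternatives that gave it a value. As a mean over cells Pgam1 stood at -0.01. Immediate early genes had a median of -0.21 over 11 genes, against 0.40 in other cells, with Junb at -0.73 and Jun at -0.63. Over the alternatives this median ran from -0.21 to 0.09, Junb from -1.02 to -0.12 and Jun from -0.64 to -0.11. At 20 to 50% haemoglobin Jun stood at 2.06, from 5 and 16 UMIs. Genes of p53 and apoptosis had a median of 0.11 over 11 genes, with Mdm2 at -0.67. Ribosomal protein genes had a median of 0.10, with 81 of 84 above 0. This turned to -0.0178 at a haemoglobin minimum of 25%, and at 50% haemoglobin or more 20 of 57 were above 0 with a median of -0.12. Over all genes outside haemoglobin in that class, 44.5% were above 0 and the median was -0.07. Genes of the mitochondrial genome had a median of 0.04, with 10 of 13 above 0.

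RNA of neutrophils, the most abundant cells of the marrow, differed between the summed members of the libraries. The summed level of 11 neutrophil markers was 17170 CPM (ground) and 9212 CPM (running) in members, against 211400 and 185700 CPM in other cells. Of these markers 10 were below 0 and 4 passed 2-fold downwards, with a median of -0.89. At 5 to 20% haemoglobin the levels were 19840 and 9365 CPM, while at 20 to 50% they were 8164 and 7663 CPM and at 50% or more 21870 and 22570 CPM. Members in which S100a8 and S100a9, the main neutrophil calprotectin genes, exceeded 2% of UMIs outside haemoglobin numbered 52 in ground (19.0%) and 22 in running (10.9%). The median member was alike, with 0.434% and 0.422% of its UMIs outside haemoglobin from these genes, against 1.32% and 0.730% over the pooled UMIs. Few cells thus carried the difference, and 1 ground cell held 1343 of the 3637 UMIs of Camp, a granule gene.

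Markers of the other cell types had lower summed levels in the members than those of neutrophils. Monocyte markers were at 211.0 CPM (ground) and 135.7 CPM (running), B cell markers at 226.8 and 219.6 CPM, granulocyte progenitor markers at 122.2 and 77.8 CPM, and macrophage markers at 77.4 and 67.6 CPM. Markers of plasma cells were at 28.5 and 7.96 CPM, of megakaryocytes at 25.4 and 34.0, of basophils or mast cells at 11.4 and 14.6, of T or NK cells at 7.12 and 6.19, and of stem cells at 2.79 and 2.65 CPM. All these lists except megakaryocytes were higher in other cells, in both libraries. Megakaryocyte markers were at 16.2 CPM (ground) and 45.5 CPM (running) in other cells. Gp9 gave 73 of their 82 UMIs in ground members and 70 of their 77 in running members. Of the 12 macrophage genes, only Cd5l and Mertk had no UMI in either library's members. Slc40a1 gave 223 of the list's 250 UMIs in ground members and 130 of its 153 in running members. Early erythroid cells also had Slc40a1, at 47.7 CPM (ground) and 51.0 CPM (running). The rule itself had removed 3 ground and 6 running cells for C1q RNA. Early erythroid markers, by contrast, were at 8769 and 8350 CPM in members. The early erythroid cells used for comparison held megakaryocyte markers at 300.6 CPM (ground) and 910.2 CPM (running). Granulocyte progenitor markers were at 1662 and 641.9 CPM there. The comparison group thus also held RNA of other lineages, in unlike amounts in the libraries.

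The genes lowest in running stood beside this neutrophil difference, whose part in them was not tested other than by leaving cells out. The 10 lowest were Wfdc17, Tnfrsf21, Ifitm1, Plek2, Lrg1, Lgals1, S100a4, Cotl1, Hp and Ifitm6, with log2 ratios from -3.00 to -1.31. Without the members rich in S100a8 and S100a9, Wfdc17, Ifitm1, Lrg1, Lgals1, Cotl1, Hp and Ifitm6 were no longer past 2-fold. The number of genes 2-fold or more lower was then 42 in place of 86, and the number higher was 24 in place of 15. Wfdc17 had 525 and 46 UMIs and Ifitm1 386 and 49, and in other cells their ratios were -1.85 and -2.03.

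The other 3 genes passed 2-fold with and without those cells. Tnfrsf21, death receptor 6 (chromosome 17, 43016555 to 43089188 in GRCm38.p6), had 95 UMIs in 59 ground members and 9 UMIs in 9 running members, a log2 ratio of -2.89 (-4.06 to -1.90). Its ratio was -0.82 in early cells and 0.04 in other cells. Plek2, pleckstrin 2, an actin-linked protein of erythroblasts (chromosome 12, 78888691 to 78907172), had 136 UMIs in 75 ground members and 23 in 16 running members, a ratio of -2.05 (-2.75 to -1.41). It stood at -3.23, -2.10 and -0.14 in the 3 haemoglobin classes, and at -3.09 in early cells and -1.20 in other cells. S100a4 had 161 and 36 UMIs and a ratio of -1.65. Across the alternatives tried, Tnfrsf21 ran from -2.97 to -2.54 and Plek2 from -2.13 to -1.08.

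**Figure D5:**
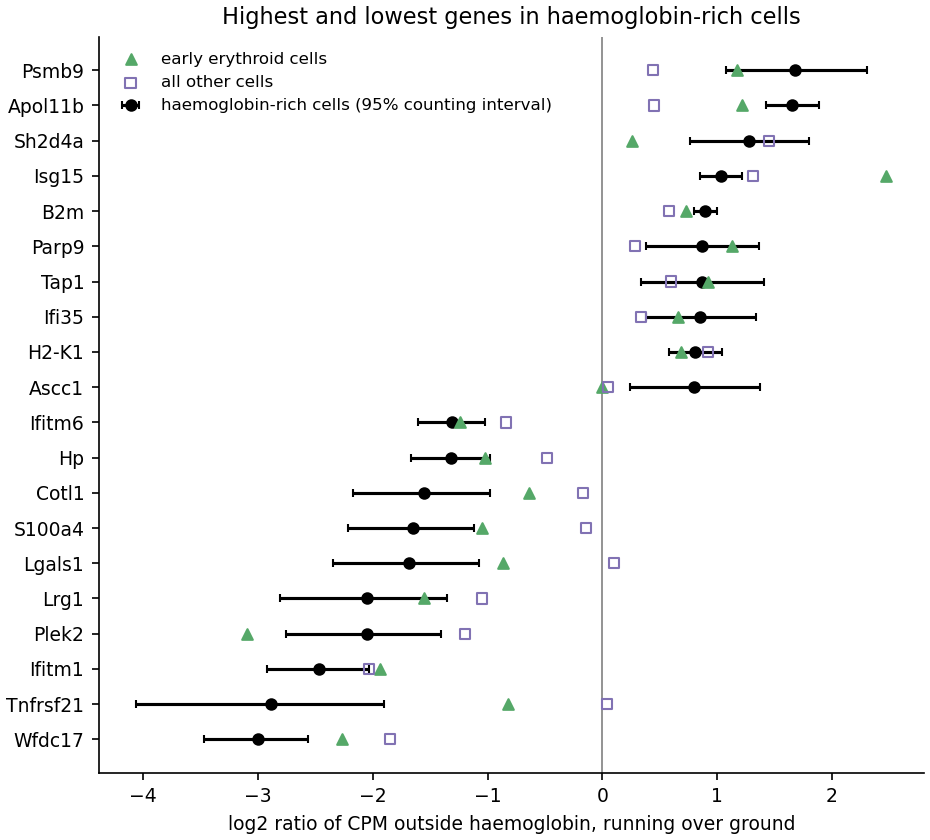
Log2 ratio of running over ground (CPM outside haemoglobin) of the 10 highest and 10 lowest genes with at least 100 UMIs in members (circles, with 95% counting intervals), beside early erythroid cells (triangles) and all other cells (squares). B2m was higher in all 3 groups of cells (0.90, 0.73 and 0.58) and Ifitm1, of the interferon-induced transmembrane family, lower in all 3 (-2.46, -1.94 and -2.03), while Tnfrsf21 was at -2.89 in members and 0.04 in other cells.

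Rcn2, a gene of the reticulocalbin family, had 6 UMIs in ground and 3 in running members. At these counts no difference was detectable.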

How the data were processed

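Single-cell RNA libraries of bone marrow, 1 ground and 1 running, were analysed. Raw UMI counts for each gene and barcode were deposited. Per the file headers they came from Cell Ranger 5.0.0. The build mm10 and STAR are named in the submitters' processing notes, and the filters applied before deposit are not given in the sources used here. A barcode needed 500 UMIs, 250 genes and at most 10% mitochondrial UMIs. Counts were summed over the cells of each class and library and divided by the UMIs outside the 8 haemoglobin genes. Log2 ratios of genes with at least 50 UMIs carry exact conditional binomial 95% intervals, and the code was tested on simulated data. No test was run, since each group has 1 library. Antisense and overlapping genes were not separated. Doublets were scored with Scrublet (scanpy 1.11.5) and kept in the results given. Genes were placed with RefSeq annotation of GRCm38.p6.

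The members, the 34 gene lists and the naming rule were chosen with earlier results of these data known. Named genes were all globins and haem synthesis genes, up to 4 members of each other described list with the largest ratios, the 10 highest and 10 lowest genes with at least 100 UMIs, and the 10 genes at each end of the haemoglobin classes. These last 2 sets left out haemoglobin, mitochondrial, ribosomal, antigen receptor, unnamed and marker genes. The 10 highest and 10 lowest also left out genes of which 1 cell held over 25% of the UMIs of the higher library. No such limit was set for the genes at the ends of the haemoglobin classes. Genes at the ends of the haemoglobin classes were taken only where both libraries had the same direction. The markers checked, Rcn2, Mki67, Epor, Gata1, Ifi27l2a and Bst2 were named besides, the last 5 chosen after their values were seen. Some genes that the rule names are not reported here. Alternatives changed the haemoglobin, UMI and mitochondrial limits, the doublet and neutrophil handling, the denominator, the averaging and the gene minimum. The software was Python 3.11.15 with matplotlib 3.10.9, pandas 2.3.3, scipy 1.17.1 and numpy 2.4.6.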

Additional observations from a re-analysis of the deposited data

How the results depend on the processing

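Precision was limited by 1 library per group, by 202 to 274 cells and by the few large cells that carry the sums. No paired analysis was possible because each group had 1 library, and for the same reason no library could be left out. The ratio of running over ground for the share of cells that are haemoglobin-rich ran from 0.631 (at least 1000 UMIs) to 0.784 (without members rich in S100a8 and S100a9) over the alternatives. The number of genes 2-fold or more higher in running, 15, became 24 without those members, 230 as a mean over cells, 27 with haemoglobin classes in equal proportions, 3 at 200 UMIs per gene or more and 545 with no minimum. The number lower, 86, became 41 at 25% haemoglobin, 42 without those members, 456 as a mean over cells, 16 at 200 UMIs and 833 with no minimum. These minimums change how many genes were counted (3487 and 11163); the other causes were not tested.

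The median haemoglobin share became 20.4% (ground) and 22.7% (running) at a minimum of 10%, and 40.9% and 45.0% at 25%, by construction. List medians moved for interferon response to 0.33 and mitosis to -0.0403 at 25% haemoglobin, for membrane genes to -0.19 and mitosis to -0.22 with classes in equal proportions, and for MHC class I to -0.15 as a mean over cells. At 25% haemoglobin Camp turned to 1.04, Ifitm6 to 0.29, Lcn2 to 0.29 and the ribosomal protein median to -0.0178. Without the members rich in S100a8 and S100a9, Il1b turned to 0.42, Retnlg to 0.22 and the glycolysis median to 0.00057. Cbfa2t3 turned to 0.34 as a mean over cells. The causes were not tested. Of the other values, 2166 stayed within their interval and 224 moved out of it. Part of the 2166 was fixed in advance, so their number does not measure stability. Leaving out doublets removed no member, and the gene minimums leave the ratio of each gene as it was. A change of denominator shifts the ratios of all genes by the same amount. Of 111 named genes whose interval left out 0, 25 changed sign under at least 1 alternative. Scrublet with its own threshold marked 0.0327% of running cells and so did not work there; with the ground threshold in both libraries, an alternative chosen after seeing the data, it marked 2.72% and 2.04% of cells and no member.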
